A study of Mus musculus with 9 samples.

Results

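The 4 genes described here are the neuronal pentraxin genes Nptx1, Nptx2 and Nptxr and the neuritin gene Nrn1, chosen by symbol from the 24015 rows of each of 2 deposited tables. All 4 have a row with an adjusted p in both tables. RNA came from the dentate gyrus, a region of the hippocampus in which granule neurons are the principal cells, dissected out of C57BL/6 mice at 8 weeks of age. Every library stands for 1 mouse, with 3 mice each in E0, E1 and E4, and strain, tissue and age are the same throughout. What the number in a group's name counts is not stated in the labels. By what is known of the study, E0 are mice before stimulation, and E1 and E4 are mice 1 h and 4 h after electroconvulsive stimulation, which makes granule neurons fire together. The question of the series is which genes and which accessible chromatin change when neurons of the adult brain are activated.

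Neuronal pentraxins assemble into multimers outside the neuron, bind the extracellular part of AMPA-type glutamate receptors and help to cluster these receptors at excitatory synapses. Nptx1 and Nptx2 encode secreted members, and Nptx2, also known as Narp, is known as a gene that seizures and synaptic activity induce in hippocampal neurons. Nptxr encodes the membrane-anchored member, which the protease encoded by Adam17 can release from the cell surface. Nrn1, also known as cpg15, encodes a small protein held at the cell surface by a lipid anchor. It was found in a search for genes induced in the rat dentate gyrus by seizures, and it promotes the growth of neurites and the maturation of synapses.

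The pentraxin genes are paralogs. Each holds 1 copy of the family signature of the pentraxin domain, and the stretch of coding sequence for it is shown here, from the GENCODE M21 transcripts (build GRCm38). It was picked by that conserved signature, so it does not show how alike the whole transcripts are. Capitals mark the 6 of 24 bases that are not the same in all 3 transcripts.
Nptx2: caCatctgCAtcAcctggacCacT
Nptx1: caCatctgTGtcAcctggacCacC
Nptxr: caTatctgCAtcTcctggacTacA
Over the aligned parts, the encoded proteins were 57.6% identical between Nptx2 and Nptx1, 54.5% between Nptx2 and Nptxr and 50.7% between Nptx1 and Nptxr. The longest run of bases shared by any pair of the 3 transcripts was 19, and no stretch of 50 bases was shared, so a read of that length without mismatches belongs to 1 of them. Nptx2 lies on chromosome 5, Nptx1 on 11, Nptxr on 15 and Nrn1 on 13.

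All values start from the authors' deposited tables, in which E1 or E4 is set against E0. For each gene they give a mean normalised count over the 6 libraries compared, an adjusted p, and a log2 fold change with its SE (standard error). A gene is called raised or lowered where the adjusted p is below 0.05. No spread between mice can be shown, since single mice have no value of their own there, and 95% intervals were computed from the deposited SEs. Library depth, approximated from the mean counts that recur among genes with a single read, was about 1940000 to 4760000 reads in genes for E1, 10020000 to 13550000 for E4 and 6140000 to 10960000 for E0. Nptxr, with the lowest mean count of the 4, would by its group level have about 118 reads in the shallowest E1 library and 116 in the shallowest E0 library. Nptx2 was as little read in E0, at about 118 reads in the shallowest library by the E1 table and 116 by the E4 table.

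In E1, Nptx2 rose most, Nptxr and Nrn1 rose less, and Nptx1 was not called. In E4 all 4 genes were raised. Over all genes with an adjusted p in the authors' deposited table, 35.5% were called in E1, 20.6% raised and 15.0% lowered. In E4 39.0% were called in the authors' deposited table, 20.7% raised and 18.3% lowered.

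**Figure D1:**
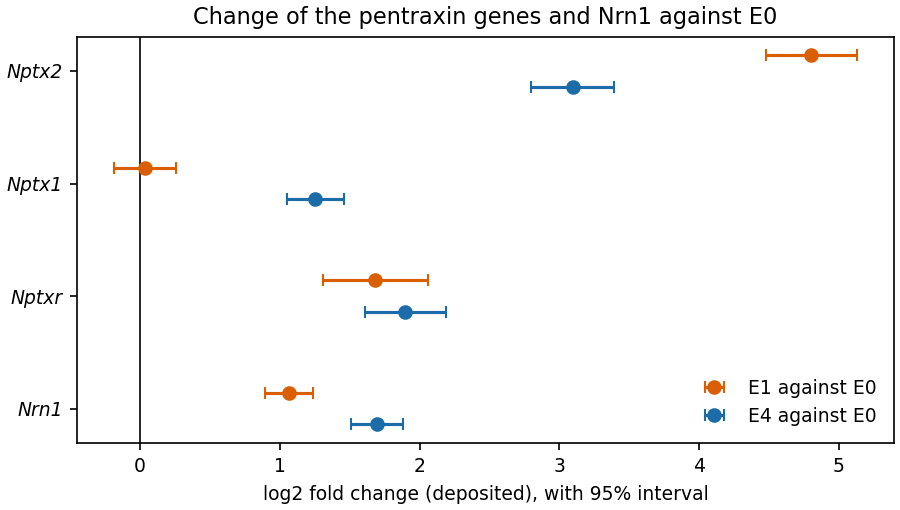
Log2 fold change of each gene in the authors' deposited tables for E1 against E0 (orange) and E4 against E0 (blue), with bars for the 95% interval from the deposited SE. The E1 interval of Nptx1 spans 0, and the other 7 intervals lie above it.

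Nptx2, the secreted pentraxin with an activity-induced gene, was 27.9-fold higher in E1 than in E0 in the authors' deposited table (log2 fold change 4.80 ± 0.17 SE, adjusted p = 1.6e-182). The 95% interval of that fold change ran between 22.3 and 34.9. Its log2 fold change ranked 71st from the top among the 10012 genes whose mean count reached 50 in the table for E1. In E4 the fold change was 8.55 in the authors' deposited table (3.10 ± 0.15, adjusted p = 7.66e-89), with an interval between 6.95 and 10.5, and ranked 22nd of 11104 genes. Its level, worked out for each group from the mean count and the fold change, was 2737 normalised counts in E1 and 98.1 in E0 on the scale of the E1 table. On the scale of the E4 table it was 1565 in E4 and 183 in E0. The change of Nptx2 was smaller in E4 than in E1, a difference of -1.71 ± 0.22 on the log2 scale (adjusted p = 9.14e-13 by the test of the difference), so that the level in E4 was 0.306 of that in E1 relative to E0.

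Nptx1, the secreted pentraxin with the highest level before stimulation, had a log2 fold change of 0.04 ± 0.11 in E1 in the authors' deposited table (adjusted p = 0.839). The 95% interval of its fold change in E1, 0.879 to 1.20, leaves out changes of the size seen in the other 3 genes. Nptx1 was 2.39-fold higher in E4 than in E0 in the authors' deposited table (1.25 ± 0.10, adjusted p = 1.41e-32), with an interval between 2.08 and 2.74. Its level was 5330 normalised counts in E1 and 5195 in E0 on the scale of the E1 table, and 23631 in E4 and 9907 in E0 on the scale of the E4 table. The difference between E4 and E1 was 1.22 ± 0.15 on the log2 scale (adjusted p = 6.04e-14), a 2.33-fold higher level in E4.

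Nptxr, the membrane-anchored receptor of the family, was 3.21-fold higher in E1 than in E0 in the authors' deposited table (1.68 ± 0.19, adjusted p = 3.68e-17) and 3.72-fold higher in E4 than in E0 there (1.90 ± 0.15, adjusted p = 1.08e-35). Its level was 311 normalised counts in E1 and 96.8 in E0 in the E1 table, and 684 in E4 and 184 in E0 in the E4 table. The difference between E4 and E1 was 0.21 ± 0.24 on the log2 scale and did not pass the test (adjusted p = 0.525). Its 95% interval allows a level in E4 between 0.834 and 1.61 times that in E1. A neighbouring gene bears on these counts. The read-through gene Npcd shares 890 of the 5170 exon bases of Nptxr (17.2%) on the same strand in GENCODE M21, and the authors' deposited tables list Npcd at 0 in both comparisons. How reads in the shared exons were assigned is not given in the sources used here. Cbx6, the upstream partner in that read-through, shares no exon base with Nptxr, and its log2 fold change was -0.84 ± 0.09 in E1 (adjusted p = 4.44e-19) and -0.17 ± 0.08 in E4 (adjusted p = 0.0629) in the authors' deposited tables.

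Nrn1 was 2.09-fold higher in E1 than in E0 in the authors' deposited table (1.07 ± 0.09, adjusted p = 2.91e-32) and 3.23-fold higher in E4 than in E0 there (1.69 ± 0.10, adjusted p = 6.99e-68). Its level was 4072 normalised counts in E1 and 1946 in E0 in the E1 table, and 11969 in E4 and 3702 in E0 in the E4 table. The difference between E4 and E1 was 0.63 ± 0.13 on the log2 scale (adjusted p = 1.1e-05), a 1.54-fold higher level in E4 with an interval between 1.30 and 1.84. On the opposite strand, Fars2, a mitochondrial tRNA synthetase gene, covers 501 of the 2249 exon bases of Nrn1 in GENCODE M21, and whether the counting used strand is not stated. Fars2 was lowered in both authors' deposited tables, at -0.90 ± 0.24 in E1 (adjusted p = 0.000845) and -0.86 ± 0.18 in E4 (adjusted p = 1.03e-05). In the authors' deposited table for E1 its mean count was 83.7, beside 3009 for Nrn1, as counts of reads and not per length. Nrn1l, the paralog of Nrn1, was hardly read, at mean counts of 1.13 (E1) and 2.41 (E4) in the authors' deposited tables, and had no adjusted p.

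Between E4 and E1, 3 of the 4 genes thus differed, against 36.7% of the 12769 genes whose mean count reached 10 in each table, with 17.7% higher and 19.0% lower in E4. Nptx1 and Nrn1 were higher in E4 and Nptx2 was lower. The test takes the E4 log2 fold change minus the E1 one, over their combined SE, and ignores that both share the E0 libraries.

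**Figure D2:**
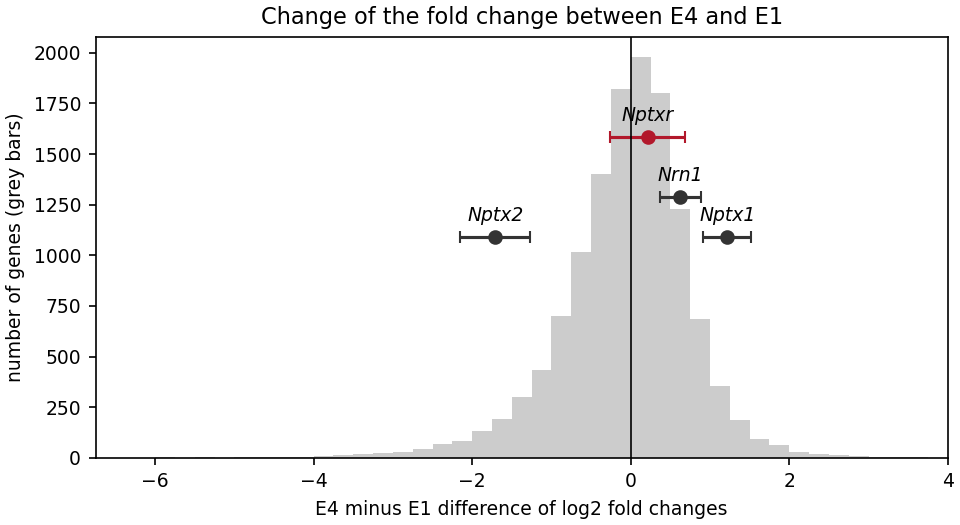
Grey bars count the 12769 genes tested by their E4 minus E1 difference of log2 fold changes (x axis), and points with bars give the 4 genes with their 95% intervals, at heights chosen for legibility. Nptx2 lies at -1.71, Nrn1 at 0.63 and Nptx1 at 1.22, while the interval of Nptxr at 0.21 (red) spans 0.

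An equal shift of all log2 fold changes, such as centring gives, cancels in differences between genes within 1 comparison. A change of scaling that does not move all genes equally would not cancel. The combined SE of such a difference ignores that both genes were measured in the same libraries. The log2 fold change of Nptx2 exceeded that of Nptx1 by 4.77 ± 0.20 in E1 and by 1.84 ± 0.18 in E4 (combined SE). It exceeded that of Nptxr by 3.12 ± 0.25 in E1 and by 1.20 ± 0.21 in E4. Nptxr and Nrn1 lay closer together, with Nptxr 0.62 ± 0.21 above Nrn1 in E1 and 0.20 ± 0.18 above it in E4.

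Per kilobase of transcript, Nptx2 came level with Nptx1 in E1. With the transcript lengths of GENCODE M21 (2536 bases for Nptx2, 5217 for Nptx1 and 5006 for Nptxr), the shares of the summed pentraxin level per kilobase in E1 were 49.9% for Nptx2, 47.2% for Nptx1 and 2.87% for Nptxr. In E0, on the same scale, they were 3.67% for Nptx2, 94.5% for Nptx1 and 1.83% for Nptxr. Nptx2 thus stood at 1.06 times the level of Nptx1 per kilobase in E1, against 0.0388 times in E0. In E4 Nptx1 again held most of the sum, at 85.7%, with 11.7% for Nptx2 and 2.59% for Nptxr. In E0, on the scale of the E4 table, the shares were 94.6% for Nptx1, 3.60% for Nptx2 and 1.83% for Nptxr. The summed pentraxin level per kilobase was 2163 in E1 and 1054 in E0 in the E1 table, and 5283 in E4 and 2008 in E0 in the E4 table. Nrn1, with a transcript of 1619 bases, stood above Nptx1 per kilobase in every group, by 2.46 times in E1 and 1.21 times in E0 in the E1 table and by 1.63 times in E4 in the E4 table. These shares and levels follow from the deposited values and carry no test. The lengths of Nptxr and Nrn1 do not allow for any reads left uncounted in exons shared with Npcd or Fars2.

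**Figure D3:**
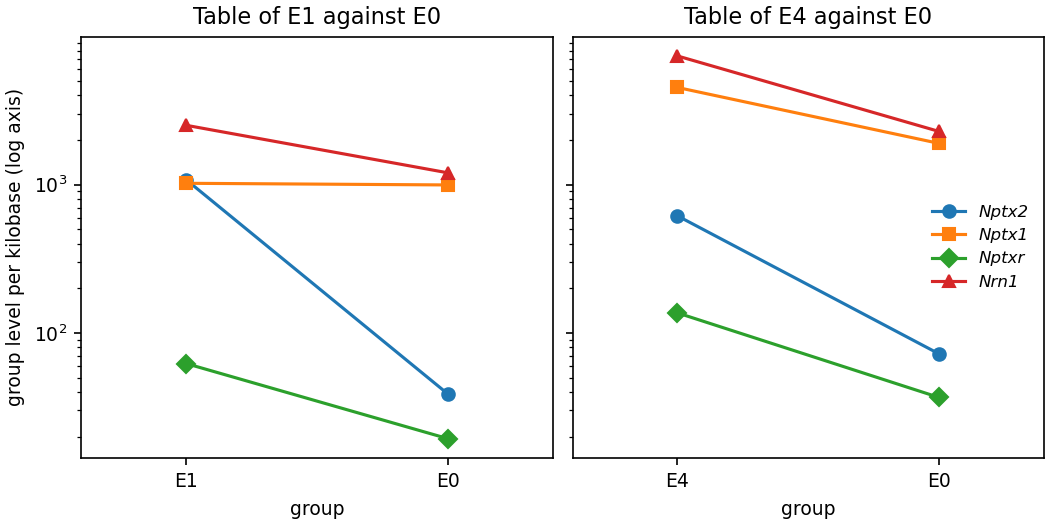
Group level per kilobase (normalised counts over transcript length, log axis) of the 4 genes, in E1 and E0 on the scale of the E1 table (left) and in E4 and E0 on that of the E4 table (right); lines join the groups of 1 gene. Nptx2 reached the level of Nptx1 in E1 (1079 and 1022) and lay below it in E4 (617 and 4530).

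The 3' UTRs of the members differ in length. AU-rich elements in a 3' UTR can speed up the decay of an mRNA, and their core ATTTA was counted on the transcript strand. Nptx2 has 2 matches in 1084 bases of 3' UTR and Nrn1 2 in 1003, where UTRs of similar length (within 1.5 times) hold a median of 2 and 1. Nptx1 has 1 match in 3754 bases and Nptxr 1 in 3341, where the median for similar length is 6 and 5 and 97.3% and 96.3% of such UTRs hold at least 1. The longer form TATTTAT occurs once in Nptx1 and not in the other 3. It is held by 58.5% of UTRs similar in length to that of Nptx1, 55.1% for Nptxr, 27.0% for Nptx2 and 25.6% for Nrn1, and by 26.7% of all 20228 UTRs. These matches are a description and do not show how fast any of the transcripts decays.

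Both tables gave nearly the same E0 levels once their scales were matched. The same E0 libraries enter both, so this is a check of the scaling only and not a second baseline. The E0 level in the E4 table was 1.89 times that in the E1 table at the median of 9818 genes whose mean count reached 50 in each, and for the 4 genes the ratio lay between 1.87 and 1.91.

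The genes with the pair of log2 fold changes nearest to each member were sought among 9407 others whose mean count reached 50 in each table, by the Euclidean distance over the 2 comparisons, which share E0. The rule for this search leaves out genes for ribosomal proteins, histones and small RNAs, and provisional gene names (numbered Gm and LOC symbols and those that end in Rik). Few genes had a pair of log2 fold changes close to that of Nptx2, whose changes were larger than those of most genes. The nearest was Inhba, which encodes a subunit of activin, at 4.63 ± 0.26 in E1 and 3.23 ± 0.21 in E4 in the authors' deposited tables (distance 0.225). Gadd45b, a stress- and activity-induced gene linked to DNA demethylation, and the kinase gene Pim1 followed at distances of 0.519 and 0.553. Cenpa, which encodes the centromeric histone variant and is left out by the rule as a histone gene, lay nearer still at 0.187, with 4.93 ± 0.20 in E1 and 3.24 ± 0.21 in E4 in the authors' deposited tables. It is named after its values were seen.

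Many genes lay close to Nptx1, whose changes were smaller than those of Nptx2. Few genes change as much as Nptx2, so counts within a fixed distance reflect the size of the change as well as its pattern. Among the 9407 genes that the rule keeps, 236 lay within a distance of 0.5 of Nptx1, 40 of Nrn1, 12 of Nptxr and 1 of Nptx2, which is Inhba, with Cenpa not counted. Nearest to Nptx1 were the potassium channel gene Kcnc4 (distance 0.0138), the phosphatidate phosphatase gene Lpin2 (0.0233) and Ubtf, a factor of ribosomal RNA transcription (0.0400). These distances are below the SEs of Nptx1 itself (0.11 in E1 and 0.10 in E4), so the order of its nearest genes is not resolved. Kcnc4 stood at 0.05 ± 0.15 in E1 and 1.25 ± 0.11 in E4 in the authors' deposited tables. Nptxr was nearest to the semaphorin gene Sema3e at 1.76 ± 0.21 in E1 and 2.01 ± 0.18 in E4 in the authors' deposited tables, then to Nedd9, a scaffold of adhesion signalling, and to Rtn4rl2, a Nogo receptor family gene. Nrn1 was nearest to Npy, the neuropeptide Y gene, followed by Akap13 and Fhl2. Npy stood at 1.05 ± 0.22 in E1 and 1.74 ± 0.30 in E4 in the authors' deposited tables. Its distance to Nrn1, 0.0476, is below both of these SEs.

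The AMPA receptors that pentraxins bind showed no common direction. Of 14 genes for AMPA receptor subunits and auxiliary proteins, 4 were raised, 4 lowered and 6 not called in E1, and 2 were raised, 4 lowered and 8 not called in E4. Their median log2 fold change was -0.02 in E1 and 0.07 in E4, beside 0.02 and -0.01 over all genes tested. Of all genes tested, 20.6% were raised and 15.0% lowered in E1, and 20.7% and 18.3% in E4. Among the subunits, Gria1 was lowered at -0.31 ± 0.10 in E1 and -0.35 ± 0.09 in E4 in the authors' deposited tables. Gria3 was raised at 0.99 ± 0.12 and Gria2 at 0.55 ± 0.10 in E1 in the authors' deposited table, and Gria4 was raised at 1.12 ± 0.19 there. None of these 3 was called in E4, with adjusted p of 0.0762, 0.113 and 0.892 in the authors' deposited table. Larger changes lay in auxiliary proteins. The authors' deposited tables gave Gsg1l, whose product modulates AMPA receptor gating, -0.28 ± 0.18 in E1 (not called) and 1.88 ± 0.13 in E4 (raised), and Cnih3, an AMPA receptor export factor, -1.21 ± 0.15 (lowered) and 0.79 ± 0.12 (raised). The TARP family gene Cacng5 was lowered at -1.69 ± 0.24 in E1 and -1.69 ± 0.20 in E4 in the authors' deposited tables.

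Genes for other extracellular organisers of excitatory synapses and their receptors went both ways in E1, 8 raised, 4 lowered and 1 not called of 13, with a median of 0.53. In E4, 1 of 12 was raised, 4 were lowered and 7 not called, with a median of -0.12. Over all genes tested, 20.6% were raised and 15.0% lowered in E1 (median 0.02), and 20.7% and 18.3% in E4 (median -0.01). The glypican gene Gpc6 was raised at 2.66 ± 0.18 in E1 in the authors' deposited table, and Gpc4, whose product in astrocytes is known to promote release of the Nptx1 protein from neurons, was lowered there at -0.40 ± 0.14. Neither was called in E4 (adjusted p = 0.952 for Gpc6 and 0.208 for Gpc4 in the authors' deposited table). C1ql3, a C1q-like synaptic organiser, was raised at 0.53 ± 0.11 in E1 and lowered at -1.23 ± 0.09 in E4 in the authors' deposited tables, and its relative C1ql2 was lowered at -0.71 ± 0.15 and raised at 0.52 ± 0.12.

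The protease gene Adam17 was not called, at 0.06 ± 0.25 in E1 and 0.09 ± 0.18 in E4 in the authors' deposited tables. Pentraxins outside the neuronal family were little read. The authors' deposited tables list Apcs at 0 in both comparisons and Crp at 0 in that for E4, and the mean counts of Ptx3 and Ptx4 were at most 24.4. Ptx4 was lowered in E1 at -1.58 ± 0.51 in the authors' deposited table. Crp was raised there at 2.92 ± 0.55, with a mean count of 7.41. Since the same E0 libraries enter the comparison for E4, where Crp was at 0, its reads came from E1 alone. The size of its rise thus has no measured baseline. The list of 6 genes holds these pentraxins, Adam17 and Nrn1l. Of the 6, 4 had an adjusted p in E1 and 3 in E4, where DESeq2 called none and 0 had an unadjusted p below 0.05. Over all genes tested, 35.5% were called in E1 and 39.0% in E4. With so few genes, no call in E4 does not mark out the list.

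Activity-regulated synaptic effectors, a list that holds genes already known to respond in these data, were raised in 11 of 11 cases in both comparisons, with a median of 3.35 in E1 and 1.29 in E4. The share raised over all genes tested was 20.6% in E1 and 20.7% in E4. Pcdh8, an activity-induced protocadherin gene, stood at 3.99 ± 0.12 in E1 and 2.24 ± 0.12 in E4, and Rheb, a small GTPase gene upstream of mTOR, at 1.56 ± 0.11 and 1.29 ± 0.10 in the authors' deposited tables.

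**Figure D4:**
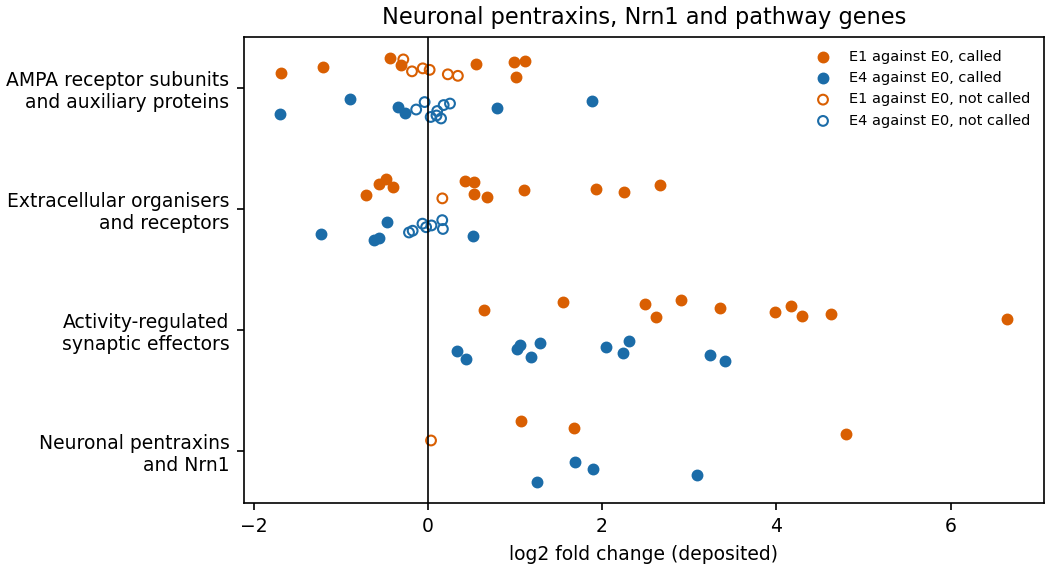
Log2 fold changes (x axis) in the authors' deposited tables for E1 against E0 (orange) and E4 against E0 (blue), 1 point per gene with an adjusted p, filled where called, for 3 pathway lists and the 4 genes. AMPA receptor genes and organisers lie on both sides of 0, and all 11 activity-regulated effectors lie above it in both comparisons.

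Cell type markers also moved in E1, and their part in the results above was not tested. For comparison, 35.5% of all genes tested were called in E1 and 39.0% in E4, raised and lowered together. With lists this short, counts near those shares do not mark out a cell type. In E1, 6 of 6 granule neuron markers, among them Prox1 and the organiser gene C1ql2, were lowered (median -0.68, summed level 4676 in E1 and 8187 in E0), as were 5 of 6 astrocyte markers, Gfap and Aldoc included (median -0.55, 9550 and 14500). Of 8 GABAergic interneuron markers, 5 were raised and 3 not called in E1 (median 0.75, 4493 and 2638), with Gad2 at 1.57 ± 0.12 and the marker of parvalbumin cells, Pvalb, at 0.09 ± 0.31 (not called) in the authors' deposited table. In E4, 2 granule markers were raised, 3 lowered and 1 not called, 1 interneuron marker of 8 was raised, and DESeq2 called none of the astrocyte, oligodendrocyte, endothelial and choroid plexus markers. An unadjusted p below 0.05 was found for 1 of 6 astrocyte, 0 of 6 oligodendrocyte, 1 of 5 endothelial and 1 of 2 choroid plexus markers in E4. Of the markers of microglia, 1 of 5 was lowered in each comparison, and of those of CA pyramidal or mossy neurons 1 was raised and 1 lowered of 6 in each. In E1, 1 oligodendrocyte marker of 6 was raised and 2 lowered, 2 of 5 endothelial markers were raised, and 1 of 3 choroid plexus markers was lowered. None of these markers was listed at 0. In bulk tissue, fewer cells of a type and less RNA per cell cannot be told apart.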

How the data were processed

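RNA-seq of the dentate gyrus of 9 mice was processed by the authors with TopHat2 and DESeq2 (build mm9), per the submitters' processing notes. Their versions are not stated there. The groups E0, E1 and E4 come from the sample titles. The files do not name the group compared with E1 and E4, and it was taken as E0. The deposited signal (mean count) is DESeq2's mean of size-factor-scaled counts over 6 libraries, going by its column name per the file headers. The deposited log2 fold changes with SEs, and the deposited score, which is their quotient, are the authors'. So are the deposited p-values and adjusted p-values. The fold changes look shrunken: the median absolute log2 value of genes whose mean count was under 1 was 0.142 in E1 and 0.106 in E4.

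The planned count test could not be run on tables of comparison statistics, so the plan for those was followed. Computed here (Python 3.11.15, scipy 1.17.1) were group levels, which assume equal group sizes, distances, and the test of E4 against E1, with Benjamini-Hochberg adjustment over 12769 genes. The code of that test was run on simulated data in which both fold changes were drawn independently. Such data cannot show how the shared E0 libraries or shrunken fold changes affect the test. Alternatives were a threshold of 0.01, other sets of genes for the adjustment, centring on the median, and a correlation of 0.5 between both estimates. Replicates are separate mice, per the labels' protocols. The 4 genes and all lists were chosen with earlier results of these data known. Genes named are the 4, up to 4 of each list by adjusted p, the 3 nearest to each member and up to 2 markers per cell type. Gria1, Gria2, Gpc4, C1ql2, Apcs and Nrn1l were added for their role and Npcd, Cbx6 and Fars2 for their position, after their values were seen. Promoters of the 4 genes were not used here.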

Additional observations from a re-analysis of the deposited data

Results flagged for a closer look

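The response to stimulation of 3 genes differed between E4 and E1 by the test of the difference itself. The same test called 36.7% of the 12769 genes tested, so a call is common. The E4 minus E1 difference of log2 fold changes was -1.71 for Nptx2, 1.22 for Nptx1 and 0.63 for Nrn1.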

How the results depend on the processing

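The direction and the call of each of the 4 genes stayed the same in the 44 values recomputed under the alternatives of threshold, adjusted gene set, centring and correlation. Only centring changes the log2 values, so the direction could not change under the other alternatives. The adjusted p lay far from both thresholds, which left the calls little room to move. Centring moved all log2 fold changes by 0.02 in E1 and -0.02 in E4. With a correlation of 0.5 between both estimates, the test called 3358 of 12769 genes higher in E4 and 3378 lower, beside 2256 and 2425 without it. Leaving out single libraries was not run, since the tables hold no values per library. No paired analysis was possible because the tables give no values per library. The SEs rest on 3 mice per group and, in E1, on shallower libraries, with a median SE of 0.17 in E1 and 0.135 in E4 over genes whose mean count reached 50. Group levels depend on the deposited, apparently shrunken, fold changes, and levels per kilobase on transcript lengths of another build than the authors'.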
